A study of Mus musculus with 2 samples.

Results

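The 51 genes described here encode the machinery that takes a new protein into the endoplasmic reticulum (ER) and on to the Golgi. They were chosen by their known role, with the differences between these arrays already known, so every difference below is a description and not a test. Of the 51, 50 had a probe set carrying their symbol alone, out of 18193 genes named on the array. Sec61g had none and was not analysed, Tmed2 lay below the floor on both arrays, and Kdelr3 lay below it on the wild-type array. The remaining 48 were measured on both arrays, as were 10144 genes in all.

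The cells were labelled T helper 2 (Th2), a CD4 lymphocyte type that makes interleukin-4, and came from Ecm1 knockout or wild-type mice. Ecm1 encodes a secreted extracellular matrix glycoprotein. Mice of both genotypes were C57BL/6 females of 6 weeks, and neither the kind of deletion nor the number of mice behind an array is given in the sources used here. Splenic CD4 cells, isolated with magnetic beads, were kept for 4 days under the same conditions in both groups. The culture held IL-4 (10 ng/ml, read from a label whose unit is damaged), blocking antibodies to IL-12 and IFN-γ (10 µg/ml each), and activating antibodies to CD28 (2 µg/ml) and CD3 (3 µg/ml). Each genotype had 1 array. There were therefore no replicates, and no value carries an error or a p-value between groups. The signal of Ecm1 was 19.3 in knockout and 29114.7 in wild-type cells. All values are probe-set signals in arbitrary units, and signals given as a pair have the knockout first. log2 differences are knockout minus wild type after centring, so that a difference of 1 is 2-fold. Signals under the floor, the median of each array (65.5 for knockout, 69.2 for wild type), were taken as unmeasured. The sample descriptions name liver, and 0 of 7 hepatocyte genes reached the floor on either array (summed signals of 117.0 and 125.1).

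Proteins bound for secretion or for membranes are recognised by the signal recognition particle (SRP), threaded through the Sec61 channel, cut by signal peptidase and given sugar chains by oligosaccharyltransferase (OST). Vesicles coated with COPII then carry them from the ER to the Golgi, and vesicles coated with COPI bring escaped ER proteins back. Cells that secrete heavily, such as plasma cells, are rich in this machinery. The transcription factors XBP1 and ATF6 of the unfolded protein response raise many of its genes.

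Of 39 genes with a RefSeq promoter window (42 windows of 300 bases, 250 before and 50 after the start site, build GRCm38.p6), 4 held the core of the unfolded protein response element, TGACGTGG on either strand. They were Sec24d and Kdelr3, both past 2-fold higher in the knockout (Kdelr3 as a bound), and Copb1 and Copb2, which were not. The windows are shown because the match lay close to the start site in each. It began 26 bases upstream in Sec24d (chr3:123267246-123267545, plus strand), 28 in Copb1 (chr7:114254631-114254930, minus strand), 7 in Copb2 (chr9:98563481-98563780, plus strand) and 30 in Kdelr3 (chr15:79516158-79516457, plus strand). Capitals mark the match, which is on the gene's own strand in Sec24d and on the opposite strand in the others.
Sec24d: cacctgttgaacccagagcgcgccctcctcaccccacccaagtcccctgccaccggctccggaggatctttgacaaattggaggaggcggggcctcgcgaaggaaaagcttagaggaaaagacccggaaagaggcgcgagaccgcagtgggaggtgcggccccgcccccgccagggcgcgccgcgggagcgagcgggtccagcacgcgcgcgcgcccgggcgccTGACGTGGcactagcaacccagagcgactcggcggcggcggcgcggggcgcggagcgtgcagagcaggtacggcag
Copb1: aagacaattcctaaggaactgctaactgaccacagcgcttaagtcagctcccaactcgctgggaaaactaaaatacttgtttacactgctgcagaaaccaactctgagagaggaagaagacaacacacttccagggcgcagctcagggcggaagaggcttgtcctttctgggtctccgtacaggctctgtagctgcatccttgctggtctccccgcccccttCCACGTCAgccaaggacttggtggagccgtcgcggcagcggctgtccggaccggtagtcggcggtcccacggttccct
Copb2: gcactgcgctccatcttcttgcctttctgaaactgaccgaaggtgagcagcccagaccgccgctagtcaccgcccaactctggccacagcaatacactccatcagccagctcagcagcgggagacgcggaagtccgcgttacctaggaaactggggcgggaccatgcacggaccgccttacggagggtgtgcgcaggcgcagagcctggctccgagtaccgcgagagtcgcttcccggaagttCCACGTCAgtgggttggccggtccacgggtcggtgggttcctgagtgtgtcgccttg
Kdelr3: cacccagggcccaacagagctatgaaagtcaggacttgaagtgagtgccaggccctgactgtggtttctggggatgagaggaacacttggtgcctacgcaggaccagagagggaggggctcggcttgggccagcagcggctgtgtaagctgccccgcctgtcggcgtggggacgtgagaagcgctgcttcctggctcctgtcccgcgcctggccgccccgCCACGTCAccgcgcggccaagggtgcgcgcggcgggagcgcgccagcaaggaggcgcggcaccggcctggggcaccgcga

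The core was thus in 9.52% of the members' windows, against 0.676% of all 32851 windows and 0.705% of the 21262 windows of protein-coding genes. No other motif searched overlapped these matches. The ER stress response element (CCAAT, 9 bases, CCACG) had a match in 0 of the 42 windows and in 0.119% of all windows. Its second form (ATTGG, 1 base, CCACG) had a match in 0 of the 42 and in 0.0365% of all. The cAMP response element, TGACGTCA, was in 1 member window, that of Cope, and in 1.79% of all. Both strands were searched. The median GC content of the members' windows was 58.2%, against 56.3% for protein-coding genes. A match is a run of letters and was not tested for binding.

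Cell type markers differed between the arrays. Over all genes measured, 7.15% were at least 2-fold higher in the knockout and 4.45% at least 2-fold lower. Of 11 plasma cell markers measured, 8 passed 2-fold upward, led by Sdc1 (3.70, wild-type signal 76.9, near the floor), Bhlha15 (3.35) and Fkbp11 (3.11). These sizes moved with the processing: with probe sets averaged they had bounds of 1.57 for Sdc1, 2.34 for Bhlha15 and 1.63 for Fkbp11, and without _x_at and _s_at probe sets Fkbp11 had a bound of 0.93. The list's median was 2.04, against 1.54 with probe sets averaged and 1.27 with a floor at the 70th percentile. All 12 plasma cell markers on the array, with those under a floor, summed to signals of 135410.1 and 67115.1. Derl3 and Fkbp11 of that list are ER proteins themselves. Tnfrsf17 was under the floor in wild type. Of 10 B cell markers measured, 5 were at least 2-fold higher, led by Blnk (2.46), Cd79b (1.28) and Blk (1.08), with Pax5 under the floor on both arrays. Blk, Cr2 (1.06) and Bank1 (1.05) were only just past 2-fold, and with no centring Blk was at 0.98. The 11 B cell markers on the array summed to 36947.0 against 18343.6. Of 7 macrophage markers measured, 4 were at least 2-fold higher, led by Chil3 (3.84, and a bound of 1.83 with the higher floor), Lyz2 (3.45) and Arg1 (3.25). C1qa, C1qb and Mrc1 were under the floor in wild type and Itgam on both arrays. The 11 on the array summed to 6781.2 against 1283.6. Of 10 T cell markers, all were below 0 and 4 were at least 2-fold lower (62052.6 against 115836.2), led by Cd4 (-1.59), Cd5 (-1.41) and Cd247 (-1.29). The part of these markers in the differences of the ER and Golgi genes was not tested. In such bulk RNA, fewer cells of a type and less RNA per cell cannot be told apart.

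Nearly the whole set had a higher signal on the knockout array. Of the 48 genes with a value from each array, 47 lay above 0, 19 were higher by 2-fold or more, 29 were within 2-fold and 0 were lower by 2-fold. Their median was 0.88, against 0.04 for all genes measured. Of all 10144 genes measured, 5386 lay above 0 and 4758 below. Over all genes, 7.15% passed 2-fold upward and 4.45% downward, while 39.6% of the members passed it upward. At 1.5-fold, 37 of the 48 were higher and 0 lower, with 18.3% of all genes higher and 13.6% lower. Among 4735 genes at least as bright as Lman2, the dimmest measured member, 6.95% were at least 2-fold higher and the median was 0.07. The single member below 0 was Sec24c. Because the members were chosen with these values known, their share cannot be read as evidence about them. The 14 members at least 2-fold higher under every setting tried were Srprb, Sec61a1, Ssr1, Ssr2, Tram2, Sec11c, Rpn1, Rpn2, Ddost, Stt3a, Sec24d, Sec13, Lman1 and Kdelr2.

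**Figure D1:**
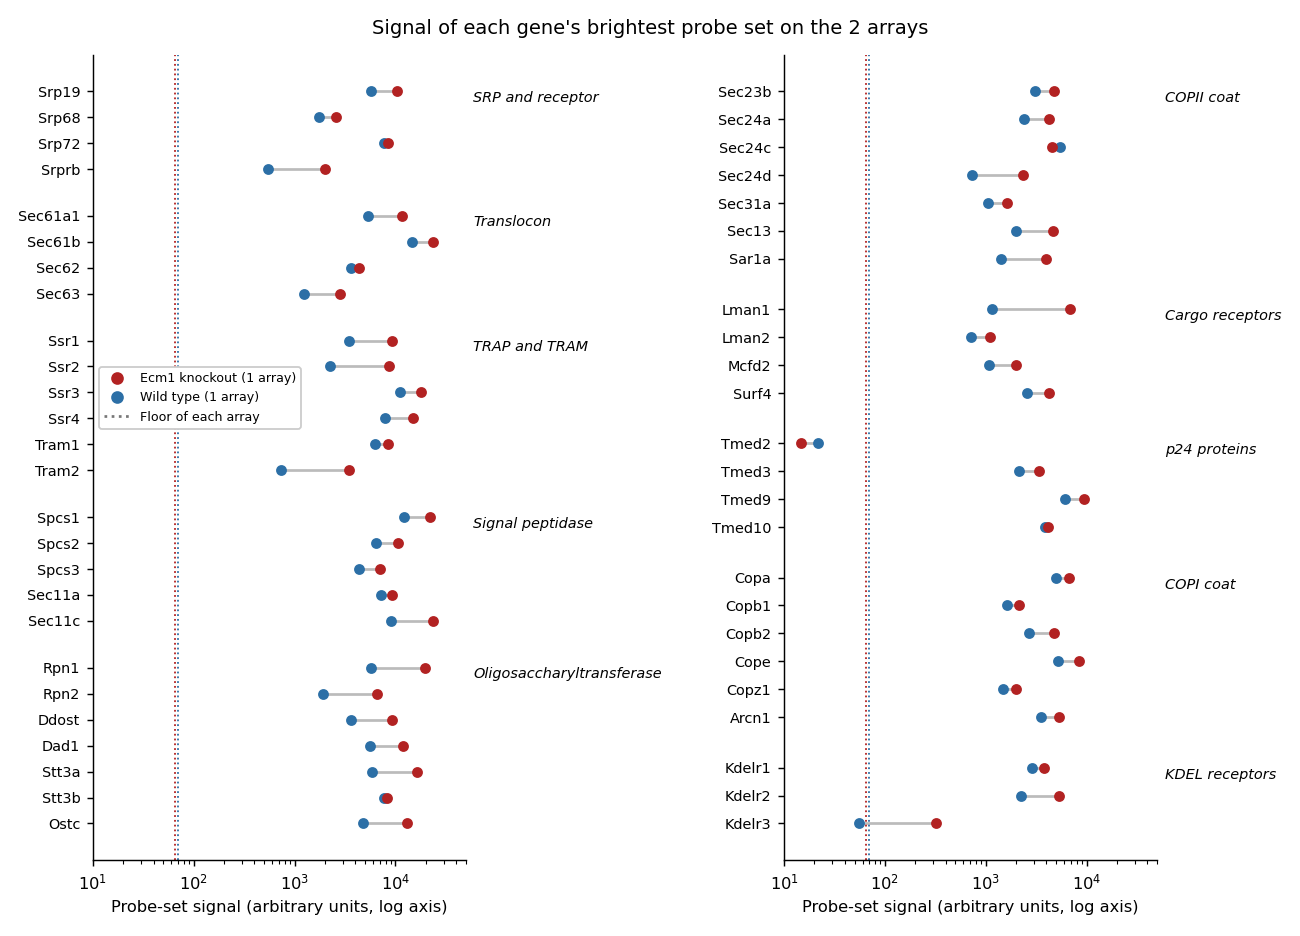
Signal of the brightest probe set (arbitrary units, log axis) of the 50 genes on the knockout array (red) and the wild-type array (blue), grouped by role, with each array's floor as a dotted line and 1 array per group. The red point lies to the right for 48 of the 50 genes, and to the left for Sec24c and for Tmed2, which is below the floor on both arrays.

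OST, the enzyme that attaches sugar chains to asparagines of proteins entering the ER, had the highest median of the 5 complexes compared. Of its 7 listed subunits, 6 passed 2-fold upward, against 7.15% of all genes, and the median was 1.54. Rpn1, a subunit that holds substrates near the active site, read 19527.0 against 5744.7, 3.65-fold higher after centring. Its 4 other measured probe sets ran from 1.95 to 2.20. Rpn2, another scaffold subunit, read 6547.7 against 1894.2 (1.89) in its single probe set. Stt3a, the catalytic subunit that works alongside the translocon, read 16262.6 against 5790.7 (1.59, and 1.54 in its second probe set). Ddost, part of the core, read 9234.7 against 3585.4 (1.47). Ostc, which joins OST to the translocon, read 12985.4 against 4811.9 (1.54). A second, dimmer probe set of Ostc was at 0.39, and with its probe sets averaged Ostc was at 0.96. Dad1, whose product also protects cells from death, read 11935.5 against 5626.9 (1.19, second probe set 1.43, and under 2-fold after quantile normalization). Stt3b, the catalytic subunit that also acts after translocation, was the exception at 8276.4 against 7666.7 (0.21). Its second probe set read 1664.3 against 691.6 (1.37), so the probe sets of Stt3b disagreed. The gap between Stt3a and Stt3b was 1.38 in the brightest probe sets, while the second ones were at 1.54 and 1.37.

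The Sec61 channel and its partners were also higher, less evenly. Sec61a1, the pore-forming subunit, read 11676.8 against 5399.2 (1.22), and its 5 other probe sets ran from 0.91 to 1.94. Sec63, which couples the channel to the chaperone BiP, read 2800.0 against 1229.5 (1.29). Its other 4 measured probe sets ran from -0.31 to 0.90, so Sec63 rests on the brightest of them, and the mean over probe sets was 0.59. Sec61b, a small channel subunit, was at 0.82 (23846.6 against 14546.9), and Sec62, a partner of Sec63, at 0.39 (4380.7 against 3592.2). The median of the 4 measured channel genes was 1.02.

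The TRAP complex, which assists certain signal sequences at the channel, was higher in all 4 subunits. Ssr2 read 8727.4 against 2226.3, 4.21-fold higher after centring. Ssr1 read 9145.9 against 3485.0 (1.49), with its other measured probe sets at 1.31 and 2.15. Ssr4 was at 1.02 (14933.6 against 7921.2), a value under 2-fold in 7 of 8 alternative settings, and at 0.27 without probe sets that may detect several transcripts. Ssr3 was at 0.77 (17732.3 against 11196.8). The wild-type signals of Ssr3 and Ssr4 were already high, at 11196.8 and 7921.2.

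Tram2, a translocation-associated membrane protein known for helping collagen synthesis, read 3486.0 against 730.2, 5.13-fold higher after centring. Its paralogue Tram1, the general form, read 8467.7 against 6268.9 (0.54). The gap between the paralogues was 1.82 on the log2 scale. A difference between 2 genes had a technical SD of 0.51 over all genes and 0.64 over the members, from pairs of probe sets of the same gene. The gap was 3.58 and 2.86 times these. Such an SD leaves out animal, culture and array error.

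Targeting genes were mixed in size. Srprb, the membrane-anchored subunit of the SRP receptor, read 1986.0 against 543.8, 3.92-fold higher, with its other probe sets at 0.52 and 2.42. The 3 SRP proteins of the set were closer to wild type. Srp19 was at 0.96 (10293.9 against 5697.6), Srp68 at 0.67 (2562.0 against 1730.4) and Srp72 at 0.23 (8479.7 against 7780.8). None of these 3 passed 2-fold. Among SRP proteins outside the set, Srp9 was at 1.23 (0.92 with probe sets averaged) and Srp14 at 0.48.

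Signal peptidase, which removes the signal sequence, had a median of 0.84 over 5 genes, and only its subunit Sec11c passed 2-fold. Sec11c, 1 of the alternative catalytic subunits, read 23471.5 against 9137.9, 2.76-fold higher, while its second, dim probe set was at 0.63. The other catalytic subunit, Sec11a, read 9176.1 against 7177.9 (0.46). A second probe set of Sec11a was below both floors, and averaging it in turned Sec11a to -0.72. The gap between Sec11c and Sec11a was 1.01 (1.98 and 1.58 times the SDs over all genes and over members). Spcs1 was at 0.98 (22096.2 against 12042.7), Spcs2 at 0.84 (10724.9 against 6450.6) and Spcs3 at 0.80 (7076.2 against 4359.0). Second probe sets of Spcs1 and Spcs2 were past 2-fold, at 1.21 and 1.37.

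**Figure D2:**
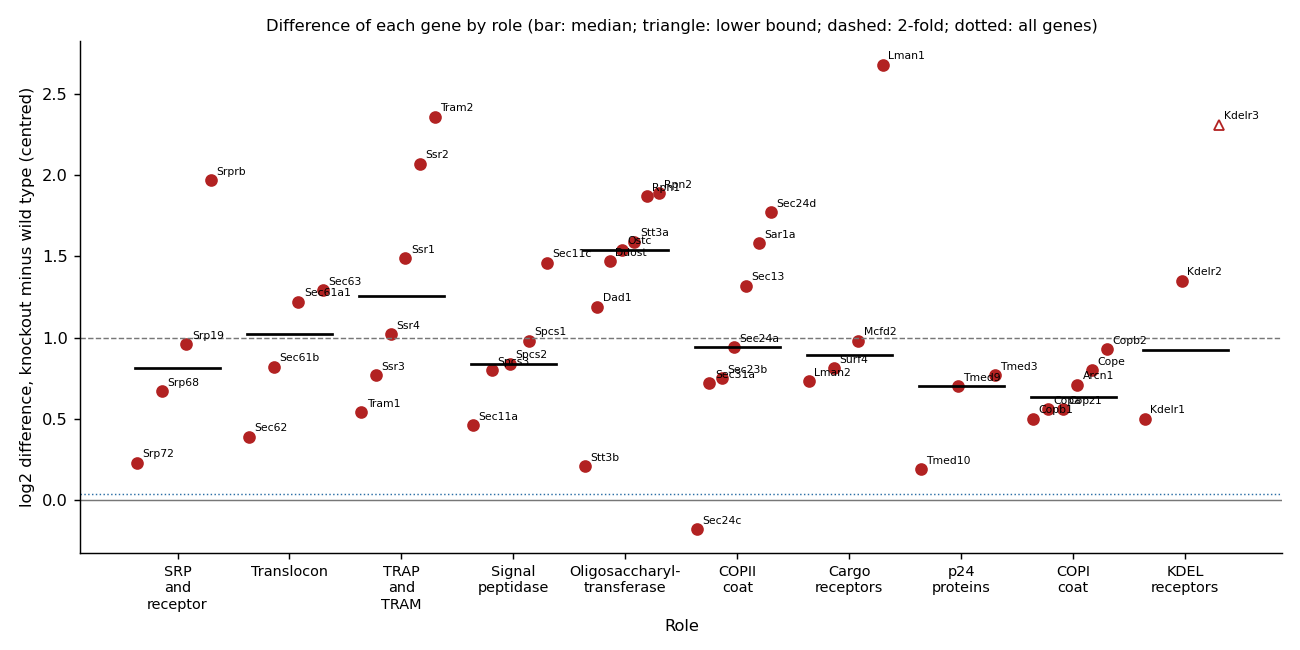
log2 difference, knockout minus wild type after centring, of each gene by role, 1 array per group, with the median of each role as a bar, the 2-fold level dashed, the median of all genes (0.04) dotted and the lower bound of Kdelr3 as a triangle. OST has 6 of 7 genes above the 2-fold level, and the 6 COPI genes lie between 0.50 and 0.93, all below it.

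Subunits of the COPII coat, which buds vesicles from the ER, covered the widest range of the 5 complexes, from -0.18 to 1.77. Sec24 proteins bind the cargo, and their paralogues spread widely. Sec24d read 2318.3 against 728.6, 3.42-fold higher. Sec24a read 4263.6 against 2389.7 (0.94, with -0.35 in a dim second probe set). Sec24c read 4528.7 against 5504.4 (-0.18) and lay below 0 under every setting tried. Their paralogue Sec24b, outside the set and the naming rule, was also below 0, at -0.34 (640.0 against 869.2). The gap between Sec24d and Sec24c was 1.95, or 3.83 times the technical SD over all genes and 3.06 times that over the members. Sec24d was above Sec24a by 0.83 (1.64 and 1.31 times), and Sec24a above Sec24c by 1.12 (2.19 and 1.75 times). Sar1a, the GTPase that starts the coat, read 3981.6 against 1425.8 (1.58), but its second probe set, the brighter of the pair in wild type, read 2287.0 against 1994.3 (0.30). The mean over both was 0.94, so the probe sets of Sar1a disagreed on whether it passed 2-fold. Sec13, of the outer cage and also of the nuclear pore, read 4634.1 against 1997.6 (1.32). Its cage partner Sec31a was at 0.72 (1619.2 against 1053.5) and the inner coat gene Sec23b at 0.75 (4777.8 against 3049.8). The COPII median was 0.94.

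Among receptors that gather cargo for these vesicles, Lman1 (ERGIC-53) differed most of all the members measured on both arrays. It carries clotting factors and other glycoproteins, and read 6795.8 against 1140.6, 6.40-fold higher after centring. Its other measured probe sets ran from 0.75 to 3.30. With probe sets averaged Lman1 was at 1.98, below Ssr2 at 2.07, while Lman1 was highest under the other settings. Mcfd2, its cofactor, read 1972.2 against 1074.9 (0.98). Surf4, a cargo receptor, was at 0.81 (4195.1 against 2574.5), with its 4 other probe sets between 0.54 and 1.37, and Lman2 (VIP36) at 0.73 (1093.8 against 707.7). Of the p24 proteins, which sort cargo in both directions, Tmed3 was at 0.77 (3391.0 against 2142.2), Tmed9 at 0.70 (9337.7 against 6161.9) and Tmed10 at 0.19 (4132.5 against 3903.5). Tmed2 read 14.6 and 21.9, under both floors.

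The COPI coat of retrieval vesicles had the narrowest range of the 5 complexes, and none of its 6 genes passed 2-fold. Copb2 was highest at 0.93 (4788.5 against 2703.8), followed by Cope at 0.80 (8459.5 against 5234.7) and Arcn1 at 0.71 (5349.5 against 3510.5). Copa was at 0.56 (6758.3 against 4933.6), Copz1 at 0.56 (2004.5 against 1465.0) and Copb1 at 0.50 (2140.0 against 1625.2). All 6 were above 0, with a median of 0.63. Averaged over its probe sets, 1 of them below the wild-type floor, Copz1 was at 1.63.

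The 5 complexes ordered by median were OST (1.54), the channel (1.02), COPII (0.94), signal peptidase (0.84) and COPI (0.63). Of the 7 listed OST genes, 6 lay above the highest listed COPI gene, and the OST gene was the higher in 36 of 42 pairs. Genes of a complex are not replicates, so this order has no test. Genes outside the set had lower medians: 0.58 for other OST subunits, 0.23 for other COPII and 0.12 for other COPI and Arf genes. The other OST subunits ran from -0.36 to 1.25. Among the listed genes, OST stayed highest under every setting tried. COPI was lowest in all of them but the mean over probe sets, where the channel was lowest (0.70) and COPI was at 0.80.

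KDEL receptors catch escaped ER residents in the Golgi for COPI to return. Kdelr1 read 3758.8 against 2848.6 (0.50) and Kdelr2 5333.8 against 2250.6 (1.35, with 2.10 in its second probe set), a gap of 0.84, or 1.66 and 1.33 times the SDs. Kdelr3 read 320.6 against 55.6, under the wild-type floor, so it was at least 4.98-fold higher. A floor at the 70th percentile gave a bound of 0.13, under 2-fold.

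Other probe sets of the members were mostly higher in the knockout too, but they did not always give the same 2-fold call. For 27 members 50 further probe sets reached both floors, of which 46 were higher in the knockout and 24 by 2-fold or more. The second-brightest probe set was at least 2-fold higher in 12 of the 27 members and in 7.32% of 4657 genes. It was above 0 in 26 of the 27 members and in 2418 of the 4657 genes. The median of the second probe sets was 0.86, against 0.98 for the brightest of the same 27 genes. Across these 27 genes the measurements correlated at r = 0.53 (Spearman 0.52), with both probe sets read from the same 2 arrays. Over the 4657 genes the correlation was higher, at 0.70 (Spearman 0.65). Of 13 members past 2-fold with a second probe set, 8 passed it there too. Of 14 members within 2-fold, 4 passed it in the second probe set: Spcs1, Spcs2, Stt3b and Surf4. The 4 lower probe sets belonged to Sec62, Sec63 and Sec24a.

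**Figure D3:**
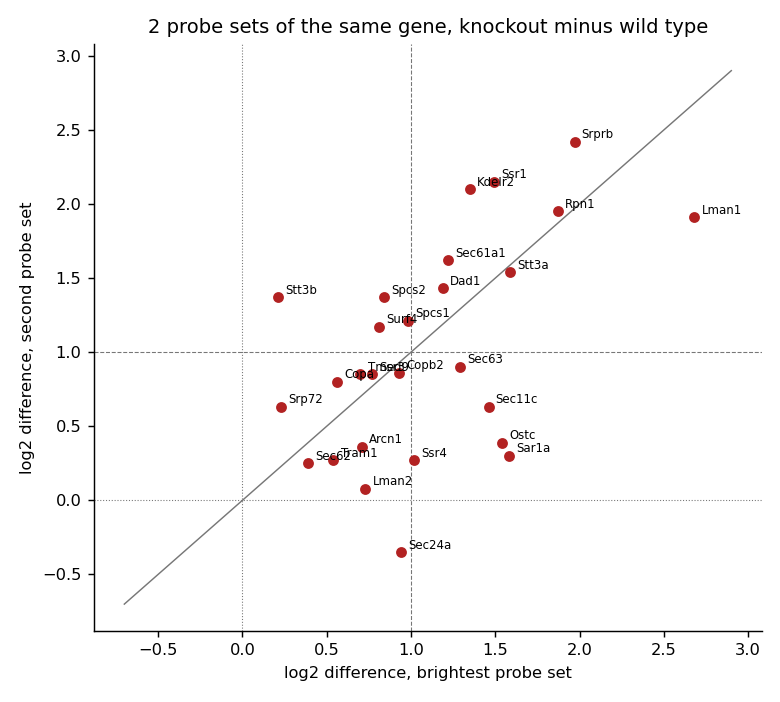
log2 difference, knockout minus wild type, of the second-brightest probe set (y axis) against the brightest (x axis) for the 27 genes with both measured, with the line of equal values in grey and 2-fold levels dashed. Srprb, Rpn1, Stt3a and Ssr1 are past 2-fold in both, Sec24a alone lies below 0 on the y axis, and Stt3b, Ostc and Sar1a are far from the line.

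Genes of the same pathway outside the set were mostly within 2-fold. Of 136 measured, 109 were, while 26 passed 2-fold upward (19.1%, against 7.15% of all genes) and 1 downward. Their median was 0.50, and 113 lay above 0 and 23 below, against 5386 above and 4758 below among all 10144 genes. Of 29 genes of these lists and of the response regulators that are named here or in the closing section as past 2-fold either way, 12 had a value or bound under it in at least 1 setting. Enzymes that build the glycan precursor had a median of 0.60, with 4 of 29 past 2-fold. Gmppb, which makes GDP-mannose, was at 1.54 (1106.0 against 409.6), Alg8, which adds glucose, at 1.35 and Pgm3, of the UDP-N-acetylglucosamine route, at 1.20 (a bound of 0.78 with the higher floor). Alg14, needed for the second sugar of the chain, was at 1.29, and at -0.30 with dim probe sets averaged in. Glycan trimming and Golgi enzymes had a median of 0.75, with 4 of 18 past 2-fold. St6gal1, which adds terminal sialic acid, read 21361.9 against 8364.5 (1.46), Mgat2 3639.1 against 1451.6 (1.43), Man1b1 997.0 against 411.8 (1.38) and Mgat1 3130.2 against 1426.3 (1.24). Mgat1 and Mgat2 start the branches of complex glycans.

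The remaining OST subunits split. Magt1, which partners Stt3b, was at 1.25 (5577.1 against 2523.5) and its paralogue Tusc3, outside the naming rule, at -0.08, while Krtcap2 was at 0.84, Ost4 at 0.58 and Tmem258 at -0.36. Other COPII genes had a median of 0.23, with 1 of 15 past 2-fold upward and 1 downward. The upward share of 6.67% was near that of all genes, of which 7.15% passed 2-fold upward and 4.45% downward. Sar1b was at 1.10 (10600.4 against 5295.5, and 0.91 after quantile normalization). Preb, which loads Sar1 with GTP, was at 0.99 (0.67 without _x_at and _s_at probe sets). Sec23ip was at 0.71, with -0.34 in its other measured probe set and 0.19 with probe sets averaged. Sec16b was at -1.55, with a knockout signal of 71.9 just over the floor. Other COPI and Arf genes had a median of 0.12, with 4 of 11 below 0. Arfgap3 (1.25) and Arf4 (1.03) passed 2-fold, and Copg1 was at 0.80 and Gbf1 at 0.73. With probe sets averaged, these were at 0.92, 0.06, 0.19 and 0.23, and Arf4 was also under 2-fold with loess (0.89), with quantile normalization (0.86) and if not centred (0.93). Other cargo and p24 genes had 6 of 15 past 2-fold upward (40%, against 7.15% of all genes). Ergic1 (1.33), Ergic2 (1.24), Yipf5 (1.24) and Yif1b (1.23) led them. Ergic1 and Ergic2 were both at 0.96 with probe sets averaged.

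Regulators of the unfolded protein response, listed with the chaperone Hspa5 (BiP), were mostly higher in the knockout. Of 9, 5 passed 2-fold upward, against 7.15% of all genes, with a median of 1.11. Atf6 read 1388.0 against 531.6 (1.49), its relative Atf6b 1019.5 against 502.1 (1.12) and Creb3l2 1614.4 against 708.4 (1.29). Xbp1 was at 0.97 in its brightest probe set (28935.4 against 15838.9), with the others from 1.35 to 1.67. Ern1, the sensor that splices Xbp1, was at 1.11, Hspa5 at 1.39, Atf4 at 0.90 and Eif2ak3, the PERK kinase, at 0.68. Ddit3, a death-promoting factor of the same response, was at -0.25. With probe sets averaged, signals under the floor included, Atf4 was at -0.05, Ddit3 at 0.03 and Ern1 had a bound of 0.53. The same averaging raised Eif2ak3 to 1.54, past 2-fold, and Xbp1 to 1.34. The other measured probe set of Atf4 was at 0.93.

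**Figure D4:**
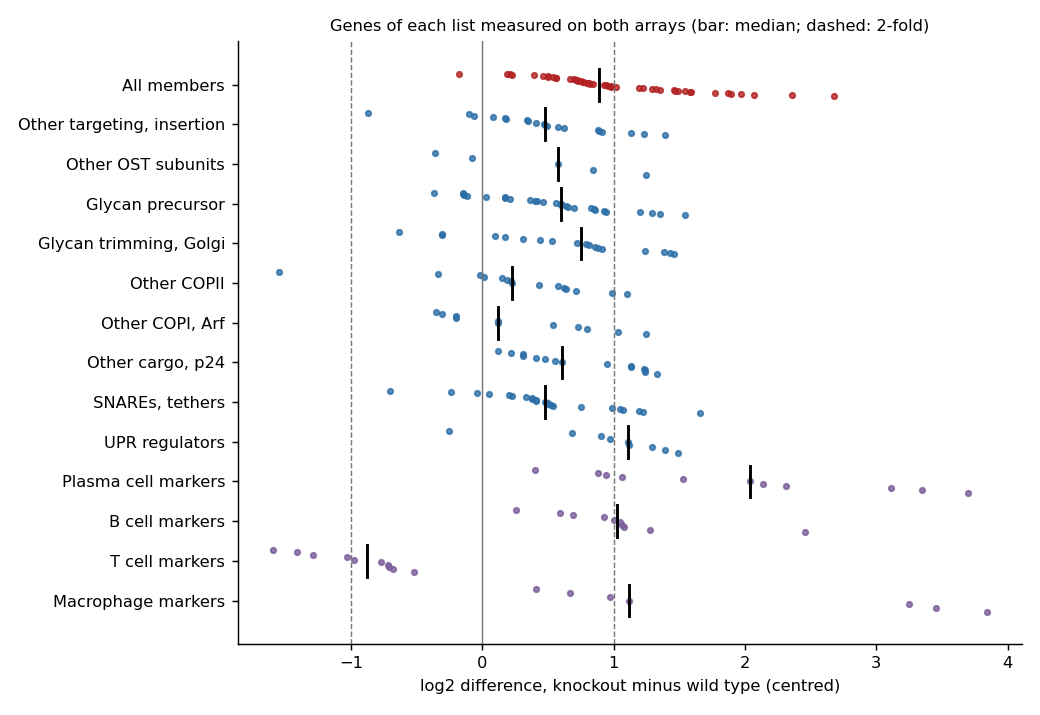
log2 difference, knockout minus wild type after centring, of each gene measured on both arrays, for the 48 members (red), the other pathway lists (blue) and cell type markers (purple), with the median of each list as a bar and 2-fold levels dashed. The members' median of 0.88 lies between that of the other COPI and Arf genes (0.12) and that of the plasma cell markers (2.04), while T cell markers all lie below 0.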

How the data were processed

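Biotin-labelled cRNA from 3 µg of total RNA per sample was hybridised to Affymetrix mouse arrays, per the labels' protocols. The authors deposited linear signal intensity values for 45101 probe sets. Which software summarised them is not stated in the sources used here. The deposited intensity values appear globally scaled: without the extremes, the central 96% averaged 500.004 for knockout and for wild type. The number of arrays limits the precision. Platform annotation gave 1 symbol to 34945 probe sets, several to 932 and none to 9160, and 64 were control probe sets, left out of the centring and of gene values. All 50 members with a probe set had their gene identifier in the RefSeq table under the same symbol.

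Signals were taken to log2, and differences were centred on the median (-0.10) of the 20834 probe sets that reached both floors. Ratios of the printed signals thus differ from the centred folds by 1.07-fold. Each gene took the value of the probe set with the highest mean log2 signal. A gene under the floor on 1 array has a bound against that floor. The technical SD, 0.36 over 4657 genes, is the SD of the difference between the brightest and second probe sets over the square root of 2, and was 0.45 over the 27 members with such a pair. The members and lists were chosen with earlier results of these data known. The text names all members, the regulators of the unfolded protein response, up to 4 genes of each other pathway list and 3 of each marker list with the largest difference, and others where their values are singled out. Promoter windows are RefSeq's, for 39 members. The procedure was tried on simulated signals, made from the mean of the real arrays with noise added and changes planted in bright genes. The planted changes were larger than 2-fold, so recovery at the 2-fold threshold was not tested. Alternatives are given in the closing section. Python 3.11.15, numpy 2.4.6, pandas 2.3.3, scipy 1.17.1 and statsmodels 0.14.6 were used.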

Additional observations from a re-analysis of the deposited data

How the results depend on the processing

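No paired analysis was possible because the series holds a single array per genotype. The settings tried were no centring, quantile normalization, loess with span 0.3, no floor, a floor at the 70th percentile, the mean over a gene's probe sets, leaving out _x_at and _s_at probe sets, which may detect several transcripts, an offset of 50, and a 1.5-fold threshold. With the 1.5-fold threshold, 37 members were higher in place of 19. Under the other 8 settings the count ran from 17 to 20 and 0 members were at least 2-fold lower. The share of all genes passing 2-fold upward ran from 5.65% (floor at the 70th percentile, 18 members) to 15.5% (no floor, 20 members). The 5 complex medians moved by less than the technical SD in all 8. Of 392 member values under these settings, 17 moved by that SD or more, in 15 genes. The calls of Dad1, Ostc, Sar1a, Sec63 and Ssr4 were lost in at least 1 setting. With probe sets averaged, Emc7 was at -0.05 and Alg14 at -0.30, both past 2-fold higher otherwise; such means take in signals under the floor. Quantile normalization put Stt3b at 0. With no centring the median of all genes was -0.06. Probe sets near the floor limit Kdelr3 and Sec16b.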

Other observations

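SNAREs and tethers of the ER and Golgi, which dock and fuse the vesicles, had a median of 0.48 over 23 genes. In the knockout 5 were at least 2-fold higher, against 7.15% of all genes, and none at least 2-fold lower. Bet1, an ER-to-Golgi SNARE, read 1266.7 against 431.7 (1.66, with 1.16 in its other probe set). Gorasp2, a Golgi stacking protein, read 4009.1 against 1892.6 (1.19, other probe set 1.83). Sec22b, a SNARE of the same step, was at 1.07 and at -0.20 in its other probe set. Nbas, of the tether that receives COPI vesicles, was at 1.22 (0.68 with probe sets averaged). Use1, a SNARE on the receiving ER membrane, was lower in each of its 3 probe sets (-0.70, -0.50 in the second and -0.36 in the last). It was named here because of that value.

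Genes of targeting and membrane insertion outside the set had a median of 0.47 over 20 genes. They included the ER membrane protein complex and the tail-anchor route. Of the 20, 3 were at least 2-fold higher, against 7.15% of all genes. Srp9, an SRP protein that pauses translation, read 13671.4 against 6253.7 (1.23, and 0.92 with probe sets averaged), Mmgt1, of the membrane protein complex, 1264.6 against 622.3 (1.13) and Emc7, of the same complex, 8768.5 against 3587.3 (1.39, with a lower value once dim probe sets are averaged in). Get4, of the tail-anchor route, was at 0.91. Emc9, likewise named for its value, went the other way at 273.7 against 537.6 (-0.87).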
